A study of Mus musculus with 6 samples.

Results

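The pan-endocrine transcription factors described here are 9 genes, Neurod1, Insm1, Isl1, Pax6, Rfx6, Rfx3, St18, Nkx2-2 and Myt1, which islet endocrine cells of several types share. They were chosen by symbol as known regulators of endocrine cells, by a rule that names no measured value but with earlier results of these data known, and all 9 were found among the 46959 rows of the deposited expression table. RNA sequencing was carried out on 3 cell populations sorted by fluorescence from pancreatic islets of adult mice that carried both an Ins1-driven H2b-mCherry reporter and a Ucn3-eGFP reporter, with 2 libraries per population. Immature beta cells were positive for mCherry alone, mature beta cells were positive for mCherry and eGFP, and double negative cells carried neither colour. Every library came from islets pooled from 10 to 12 mice, cultured overnight and dissociated with trypsin, so a library is a mean over animals, and the sort rests on the Ins1 and Ucn3 reporters.

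These factors act in the formation of endocrine cells, a lineage to which Neurog3 commits pancreatic progenitors, and most of them stay on in the adult islet. They form a network of DNA-binding proteins that switches on hormone genes and the secretory machinery and keeps other fates off. NEUROD1 is a basic helix-loop-helix protein, NKX2-2, PAX6 and ISL1 are homeodomain proteins, INSM1, MYT1 and ST18 are zinc finger proteins, and RFX6 and RFX3 bind DNA through a winged helix. Loss of the mouse genes in development reduces or misdirects islet endocrine cells, and mutations of human RFX6, NEUROD1, PAX6 and NKX2-2 are causes of diabetes.

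The libraries differed in depth and in the cells they held. Depth recovered from the table came to 2393841 and 3448926 reads for immature cells, 23718091 and 26824380 for mature cells, and 22063880 and 22731664 for double negative cells. Replicates correlated across genes on the log2(RPKM + 1) scale at Pearson's r = 0.9672, 0.9973 and 0.9905 in the same order, and genes are not independent replicates. The sex labels, male for replicate 1 and female for replicate 2, go against the values. Xist, transcribed from the inactive X chromosome, lay between 21.41 and 129.1 RPKM in all 6 libraries, and 4 Y-linked genes reached at most 0.1607 RPKM in the libraries labelled male and 2.23 RPKM in those labelled female, so no comparison by sex is made. Ins2 followed the sort, at 44930 and 49010 RPKM in immature, 158100 and 170700 RPKM in mature and 1126 and 2412 RPKM in double negative cells. Gcg was highest in double negative cells, at 172600 and 166600 RPKM. It stood at 28020 and 19010 RPKM in immature against 532 and 722.8 RPKM in mature cells. All 7 of 7 alpha, 4 of 4 delta and 2 of 2 PP cell markers were higher in immature than in mature cells. PP markers summed to 7291 and 8546 RPKM in immature, 170.9 and 155.5 RPKM in mature and 19150 and 20420 RPKM in double negative libraries. Summed markers of most non-endocrine cell types listed were highest in the immature libraries, with the ductal sum as an exception. All 8 of 8 endothelial markers were higher in immature than in mature cells, with summed levels of 793.3 and 743.1, 3.646 and 2.353, and 181.2 and 191.4 RPKM in immature, mature and double negative libraries. All 9 of 9 immune markers were higher as well, with sums of 1531 and 1558, 45.72 and 45.83, and 33.58 and 37.03 RPKM. Of these, Ptprc, Csf1r, Laptm5 and Lyz2 would not have passed the filter on low values without their immature libraries, so their differences are descriptions. Among all tested genes 49.8% were higher and 15.5% lower in immature than in mature cells. Mesenchymal markers were higher in 6 of 7 cases, with sums of 138.1 and 95.8, 0.3951 and 0.4899, and 21.54 and 26.59 RPKM. Acinar markers, higher in 6 of 6 tested cases, summed to 7226 and 23100, 144.8 and 99.14, and 200.9 and 1680 RPKM, with 1 of 8 listed (Amy2a5) at 0 in every library, and no endothelial, immune or mesenchymal marker was at 0 in all libraries. Ductal markers summed to 442.4 and 454.5 RPKM in immature, 813 and 887.2 RPKM in mature and 721.3 and 746.9 RPKM in double negative libraries. Most of each sum was Spp1, at 288.2 and 285.5, 748.1 and 821.4, and 619.7 and 624.4 RPKM. Of 5 tested, 3 (Krt19, Sox9 and Tspan8) were higher and 2 (Krt7 and Spp1) lower in immature than in mature libraries as deposited. Krt7 turned sign under a rescaling to 18 secretory genes of endocrine cells. The part of these cells in the results below was not tested.

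Every one of the 9 factors was present in every library, at levels between 2.29 and 101.47 RPKM. Summed over the 9 genes they reached 285.5 and 274.1 RPKM in immature, 327 and 317.8 RPKM in mature and 270.5 and 277.4 RPKM in double negative cells. Individual factors differed by up to 3.5-fold between populations. Mature beta cells had the most Insm1, St18 and Nkx2-2 and the least Rfx6, Rfx3, Myt1 and Isl1. Neurod1 was nearly level across all 3 populations, and Pax6 was lowest in double negative cells. The highest factor per gene length was Neurod1 in immature and double negative cells, and Insm1 in mature cells. Rfx3 was the lowest in all 6 libraries, at 2.29 to 5.49 RPKM.

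**Figure D1:**
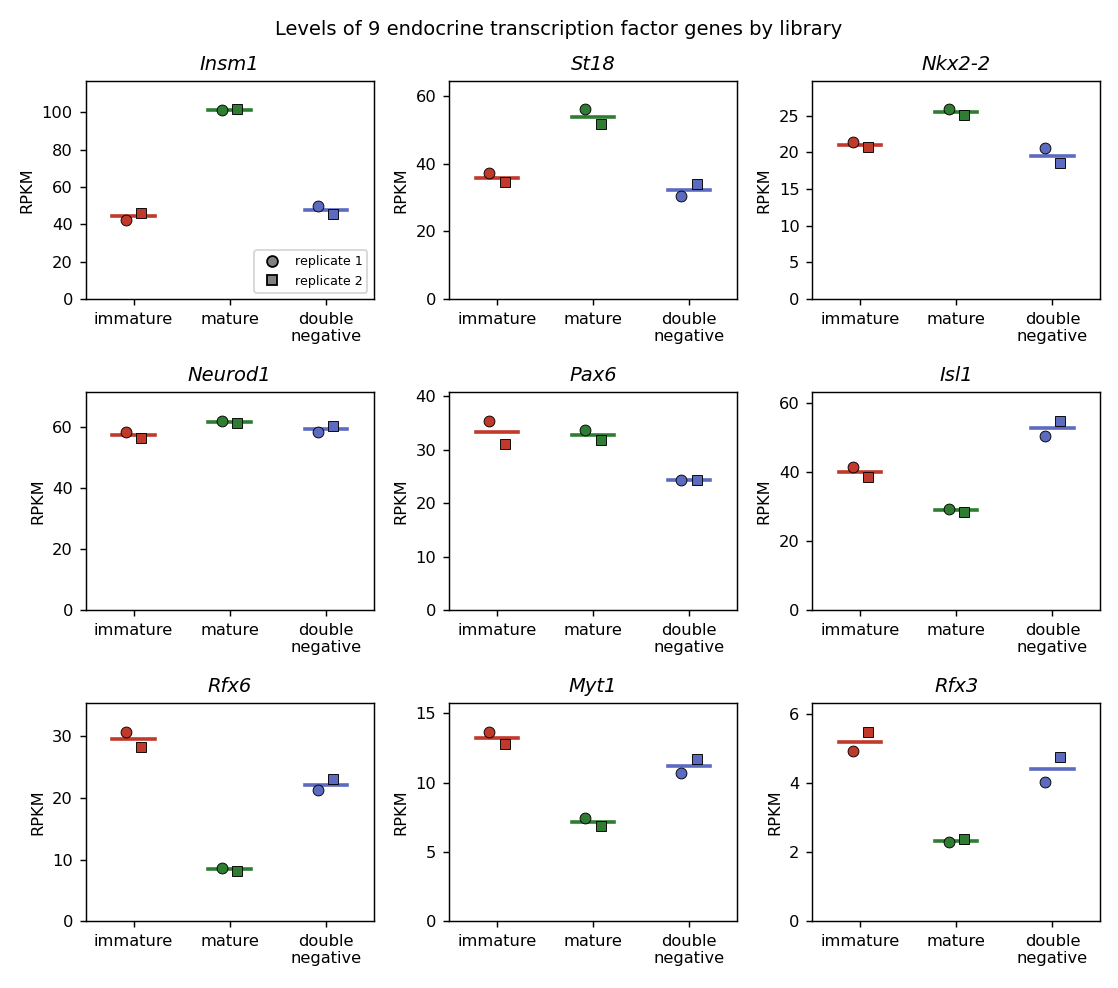
Levels of the 9 factors in RPKM on the vertical axes, by population on the horizontal axes, with a circle for replicate 1, a square for replicate 2 and a bar at the mean of both. Insm1 stands near 101 RPKM in mature cells against 42.31 to 50.02 RPKM in the other 4 libraries, and Rfx6 near 8 RPKM in mature cells against 21.32 to 30.74 RPKM in the others.

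The first comparison asked which factors distinguish immature from mature beta cells. Of the 9 factors, 4 were higher in immature cells (Isl1, Rfx6, Rfx3 and Myt1), 3 were lower (Insm1, St18 and Nkx2-2) and 2 did not pass (Neurod1 and Pax6). The split depended on scaling, with 3 higher and 5 lower after median-ratio rescaling, 3 and 3 after quantile normalization, and 6 and 1 after the secretory rescaling. The test was limma on log2(RPKM + 1) over 13367 genes with a Benjamini-Hochberg adjusted p under 0.05. By that rule 65.3% of all tested genes passed, 49.8% higher and 15.5% lower, so 7 of 9 is close to the background share. The median of all tested genes was 0.285 on the log2 scale, and the median of the 9 factors was 0.017. Because the median of all genes was shifted, the larger differences below are also given relative to that median. In bulk samples, fewer cells of a type and less RNA per cell cannot be told apart.

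Neurod1 encodes a basic helix-loop-helix activator that binds E boxes of the insulin genes together with E proteins. Neurod1 (ENSMUSG00000034701.9, GRCm38 chromosome 2, 79452521 to 79456751, minus strand) had 58.47 and 56.42 RPKM in immature, 62.2 and 61.58 RPKM in mature and 58.58 and 60.48 RPKM in double negative libraries. All 6 values lay within a narrow band, and the immature libraries were just below the mature ones. The difference between immature and mature cells was -0.11 (SE 0.05, limma adjusted p = 0.0967), with a 95% interval from -0.22 to 0.01. It was 0.06 between mature and double negative cells (95% interval -0.06 to 0.17, limma adjusted p = 0.369) and -0.05 between immature and double negative cells (-0.17 to 0.07, limma adjusted p = 0.402). These intervals hold for the deposited scaling: the difference of Neurod1 between immature and mature cells was -0.54 after median-ratio rescaling and 0.31 after the secretory rescaling.

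Nkx2-2, a homeodomain factor that mouse beta cells need to form and to keep their identity, was higher in mature cells as deposited. Nkx2-2 (ENSMUSG00000027434.11, chromosome 2, 147177546 to 147194243, minus strand) had 21.36 and 20.78 RPKM in immature, 25.85 and 25.09 RPKM in mature and 20.62 and 18.5 RPKM in double negative libraries. The immature values rest on 147 and 206 reads. Both mature libraries lay above the other 4, which fell between 18.5 and 21.36 RPKM. Immature cells were lower than mature cells by -0.26 (SE 0.07, limma adjusted p = 0.0154), or -0.55 relative to all genes. That call was lost without mature replicate 1 (adjusted p = 0.103) and without mature replicate 2 (adjusted p = 0.0706), and rescaling to the secretory genes turned the sign, to 0.15. Mature cells were higher than double negative cells by 0.37 (SE 0.07, limma adjusted p = 0.00525), a call lost without mature replicate 1 (adjusted p = 0.0504) and turned to -0.03 by the secretory rescaling. For immature against double negative cells the difference was 0.10 (95% interval -0.06 to 0.27).

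Pax6, a paired box and homeodomain factor that activates the glucagon and insulin genes, separated double negative cells from both beta cell populations. Pax6 (ENSMUSG00000027168.21, chromosome 2, 105668900 to 105697364, plus strand) had 35.47 and 31.12 RPKM in immature, 33.79 and 31.9 RPKM in mature and 24.35 and 24.38 RPKM in double negative libraries. Immature and mature libraries overlapped, and all 4 exceeded both double negative libraries. Mature cells were higher than double negative cells by 0.42 (SE 0.07, limma adjusted p = 0.00483) and immature cells by 0.43 (SE 0.07, limma adjusted p = 0.00432). The secretory rescaling left 0.02 of the mature difference (adjusted p = 0.872), and quantile normalization and median-ratio rescaling left 0.18 and 0.12 of the immature one (adjusted p = 0.0553 and 0.147). Between immature and mature cells Pax6 differed by 0.02, with a 95% interval from -0.17 to 0.20. Its sign there followed the scaling and the library left out.

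Isl1, a LIM homeodomain factor that works through the adaptor LDB1, was ordered double negative, immature, mature from high to low. Isl1 (ENSMUSG00000042258.13, chromosome 13, 116298281 to 116309689, minus strand) had 41.36 and 38.45 RPKM in immature, 29.29 and 28.54 RPKM in mature and 50.47 and 54.86 RPKM in double negative libraries. The 3 populations were apart in every library. Mature cells were lower than double negative cells by -0.84 (SE 0.07, limma adjusted p = 0.000163), and immature cells by -0.39 (SE 0.07, limma adjusted p = 0.00367). Against mature cells, immature cells were higher by 0.45 (SE 0.07, limma adjusted p = 0.00156), which is 0.17 above the median of all genes and 0.02 after median-ratio rescaling (adjusted p = 0.781). Isl1 was the only factor that was lower in immature than in double negative cells at the threshold.

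**Figure D2:**
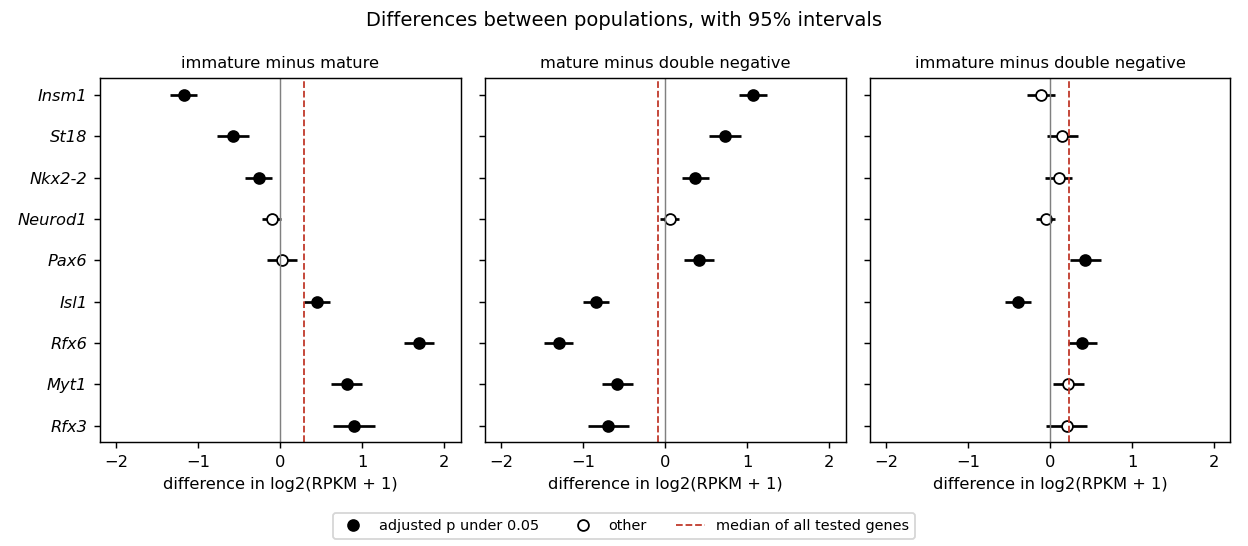
Differences in log2(RPKM + 1) on the horizontal axes for the 9 factors, with 95% intervals from limma, filled where the adjusted p is under 0.05. A dashed line marks the median of all 13367 tested genes (0.285, -0.084 and 0.237), and Insm1 and Rfx6 lie farthest from it on opposite sides in the first panel.

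Insm1 was the most mature-enriched of the zinc finger factors. It encodes a repressor that recruits the histone demethylase KDM1A and RCOR corepressors, and it is a general marker of neuroendocrine cells. Insm1 (ENSMUSG00000068154.5, chromosome 2, 146221921 to 146225020, plus strand) had 42.31 and 46.2 RPKM in immature, 101.37 and 101.47 RPKM in mature and 50.02 and 45.61 RPKM in double negative libraries. The mature replicates were nearly identical and lay at about 2.12 times the double negative mean, while immature and double negative libraries overlapped. Immature cells were lower than mature cells by -1.18 (SE 0.07, limma adjusted p = 4.27e-05), or -1.47 relative to all genes. Mature cells were higher than double negative cells by 1.07 (SE 0.07, limma adjusted p = 7.92e-05). Both calls held in all 17 alternative fits, from -1.62 to -0.76 and from 0.66 to 1.19. For immature against double negative cells the difference was -0.11 (95% interval -0.28 to 0.06), and it passed, at -0.42 and -0.37, after median-ratio rescaling and quantile normalization. In the ranking of all 46959 rows, Insm1 stood at 295 and 290 in mature libraries, against 1036 and 902 in immature and 645 and 719 in double negative libraries.

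St18, also called Myt3, and Myt1 are zinc finger factors of one family, and they moved in opposite directions. St18 (ENSMUSG00000033740.17, chromosome 1, 6487231 to 6860940, plus strand) had 37.16 and 34.58 RPKM in immature, 56.05 and 51.82 RPKM in mature and 30.35 and 34.07 RPKM in double negative libraries. Both mature libraries lay above all others. Immature cells were lower than mature cells by -0.58 (SE 0.08, limma adjusted p = 0.00126), or -0.86 relative to all genes, and by -0.16 after the secretory rescaling (adjusted p = 0.182). Mature cells were higher than double negative cells by 0.73 (SE 0.08, limma adjusted p = 0.000622). The mean level of St18 in immature cells was 1.11 times that in double negative cells, a difference of 0.15 (95% interval -0.04 to 0.35).

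Myt1 promotes endocrine differentiation. Myt1 (ENSMUSG00000010505.16, chromosome 2, 181763332 to 181827797, plus strand) had 13.67 and 12.81 RPKM in immature, 7.44 and 6.85 RPKM in mature and 10.72 and 11.68 RPKM in double negative libraries. Mature libraries were the lowest, and both immature libraries stood above both double negative ones. Immature cells were higher than mature cells by 0.81 (SE 0.08, limma adjusted p = 3e-04), or 0.52 relative to all genes, and mature cells were lower than double negative cells by -0.58 (SE 0.08, limma adjusted p = 0.00141). These calls held in all 15 alternative fits that included Myt1. Immature against double negative cells gave 0.22 (SE 0.08, limma adjusted p = 0.0502), and the sign turned to -0.07 and -0.08 after median-ratio rescaling and quantile normalization.

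Rfx6 differed most between immature and mature cells. It encodes a regulatory factor X protein required for most islet endocrine cells to form and for insulin secretion in the adult. Rfx6 (ENSMUSG00000019900.19, chromosome 10, 51677756 to 51730432, plus strand) had 30.74 and 28.23 RPKM in immature, 8.7 and 8.17 RPKM in mature and 21.32 and 23.06 RPKM in double negative libraries. The 3 populations did not overlap. Immature cells were higher than mature cells by 1.69 (SE 0.07, limma adjusted p = 1.39e-05), or 1.41 relative to all genes, and the ratio of mean RPKM was 3.5. Mature cells were lower than double negative cells by -1.30 (SE 0.07, limma adjusted p = 5.04e-05). Both calls held in all 15 alternative fits that included Rfx6, with ranges from 1.28 to 2.08 and from -1.67 to -1.19. Immature cells were also higher than double negative cells, by 0.39 (SE 0.07, limma adjusted p = 0.00552), but median-ratio rescaling left 0.09 (adjusted p = 0.278) and quantile normalization 0.14 (adjusted p = 0.105). A level called above both other populations was common, at 31.2% of tested genes, and among the 9 factors it applied to Rfx6 alone. In mature libraries Rfx6 ranked 4905 and 5025 of all rows, against 1580 and 1691 in immature and 1919 and 1767 in double negative libraries.

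Rfx3, another RFX factor, which controls ciliary genes and is needed for beta cell maturation in mice, was also lowest in mature cells. Rfx3 (ENSMUSG00000040929.17, chromosome 19, 27761721 to 28011166, minus strand) had 4.92 and 5.49 RPKM in immature, 2.29 and 2.38 RPKM in mature and 4.04 and 4.76 RPKM in double negative libraries. Mature libraries were lowest, and the immature values rest on 130 and 209 reads, so that counting error alone spans 4.11 to 5.84 and 4.77 to 6.29 RPKM (95% Poisson intervals). Immature cells were higher than mature cells by 0.90 (SE 0.10, limma adjusted p = 0.000593), or 0.61 relative to all genes, and by 0.22 after quantile normalization (adjusted p = 0.133). Mature cells were lower than double negative cells by -0.69 (SE 0.10, limma adjusted p = 0.00212). Immature and double negative cells gave 0.20 (95% interval -0.05 to 0.45), with the sign turned by quantile normalization and median-ratio rescaling.

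Promoter windows of the RFX genes and a window each of Pax6 and Myt1 are shown. Each holds a match to GTTGCC or AAAGTT, so they are a selection and not a result about factors lowest in mature cells. The window of Isl1, also lowest there, held neither and is not shown. Nor is that of Nkx2-2, which held neither, or that of Neurod1, which held AAAGTT at position -159. Further windows of Pax6 and Myt1 are not shown either. The Pax6 window at chr2:105682213 and the Myt1 window at chr2:181766779 held neither, and the Myt1 window at chr2:181796057 held AAAGTT. Each window runs from 250 bases before to 50 bases after the RefSeq start, 5′ to 3′ on the gene's strand, from RefSeq on GRCm38.p6. Of the 9 factors, 7 matched a window, 10 windows in all. Capitals mark matches on either strand to GTTGCC, a core of the RFX motif, or to AAAGTT, a core bound by the MYT1 family.
Rfx6 (chr10:51685268-51685567): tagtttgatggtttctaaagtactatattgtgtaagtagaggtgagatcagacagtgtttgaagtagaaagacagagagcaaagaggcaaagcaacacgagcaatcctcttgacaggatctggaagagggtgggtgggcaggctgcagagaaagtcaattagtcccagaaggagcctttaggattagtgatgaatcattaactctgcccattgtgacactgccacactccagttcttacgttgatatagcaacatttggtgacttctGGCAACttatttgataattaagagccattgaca
Rfx3 (chr19:28011117-28011416): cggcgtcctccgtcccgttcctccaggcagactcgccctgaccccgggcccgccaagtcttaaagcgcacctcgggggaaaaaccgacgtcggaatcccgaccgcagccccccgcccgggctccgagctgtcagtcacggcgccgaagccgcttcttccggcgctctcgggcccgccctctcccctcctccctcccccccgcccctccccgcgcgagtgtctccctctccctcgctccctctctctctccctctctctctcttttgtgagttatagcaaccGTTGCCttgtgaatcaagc
Pax6 (chr2:105668646-105668945): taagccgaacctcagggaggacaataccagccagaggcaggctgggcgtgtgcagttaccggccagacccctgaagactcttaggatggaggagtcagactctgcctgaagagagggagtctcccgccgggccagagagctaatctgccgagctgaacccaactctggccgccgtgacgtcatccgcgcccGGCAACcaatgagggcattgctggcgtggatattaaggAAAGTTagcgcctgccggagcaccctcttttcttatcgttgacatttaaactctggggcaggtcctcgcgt
Myt1 (chr2:181763082-181763381): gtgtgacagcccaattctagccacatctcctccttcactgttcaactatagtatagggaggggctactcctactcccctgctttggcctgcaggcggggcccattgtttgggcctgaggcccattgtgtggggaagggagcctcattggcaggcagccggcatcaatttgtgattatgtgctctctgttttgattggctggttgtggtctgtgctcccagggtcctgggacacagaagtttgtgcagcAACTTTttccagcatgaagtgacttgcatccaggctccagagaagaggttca
The RFX core was found at 18 bases after the Rfx6 start (reverse strand), at 32 after the Rfx3 start (forward strand) and at position -59 of Pax6 (reverse strand). It occurred in 3 of the 10 windows, and in 12.5% of all 32851 RefSeq windows of this length. AAAGTT occurred in 4 of 10 windows and in 14.1% of all, among them a reverse-strand match at position -2 of Myt1 and a forward-strand match at -21 of Pax6. The E box form CAGATG was in 1 of 10 windows (17.2% of all), that of Nkx2-2, the NK2 core CAAGTG in the same window (13.6% of all), and CTAATG in 0 of 10 (7.4% of all). The general E box CANNTG, which includes both CAGATG and CAAGTG, was in 7 of 10 windows and 72.3% of all. The Rfx6 window belongs to a start inside the gene's annotated span. A match describes letters in this window and not a bound site.

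Ratios within a library do not change when all its values are multiplied by 1 factor, though quantile normalization can change them, and each factor was also set against Neurod1 in the same library. Rfx6 lay at -0.93 and -1 relative to Neurod1 on the log2 scale in immature, at -2.84 and -2.91 in mature and at -1.46 and -1.39 in double negative libraries. Rfx6 thus made up a far smaller part of the Neurod1 level in mature cells. Insm1 lay at -0.47 and -0.29 in immature, at 0.70 and 0.72 in mature and at -0.23 and -0.41 in double negative libraries, and exceeded Neurod1 in mature cells only. Myt1 had ratios of -2.10 and -2.14, -3.06 and -3.17, and -2.45 and -2.37, and Rfx3 of -3.57 and -3.36, -4.77 and -4.70, and -3.86 and -3.67. In both, the mature libraries were the lowest, and the gap to the nearest other library exceeded the gap between replicates. Isl1 had ratios of -0.5 and -0.55, -1.09 and -1.11, and -0.21 and -0.14, and St18 of -0.65 and -0.71, -0.15 and -0.25, and -0.95 and -0.83. Nkx2-2 lay in a narrow range, at -1.45 and -1.44 in immature, -1.27 and -1.3 in mature and -1.51 and -1.71 in double negative libraries. Pax6 had -0.72 and -0.86, -0.88 and -0.95, and -1.27 and -1.31, lowest in double negative cells.

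**Figure D3:**
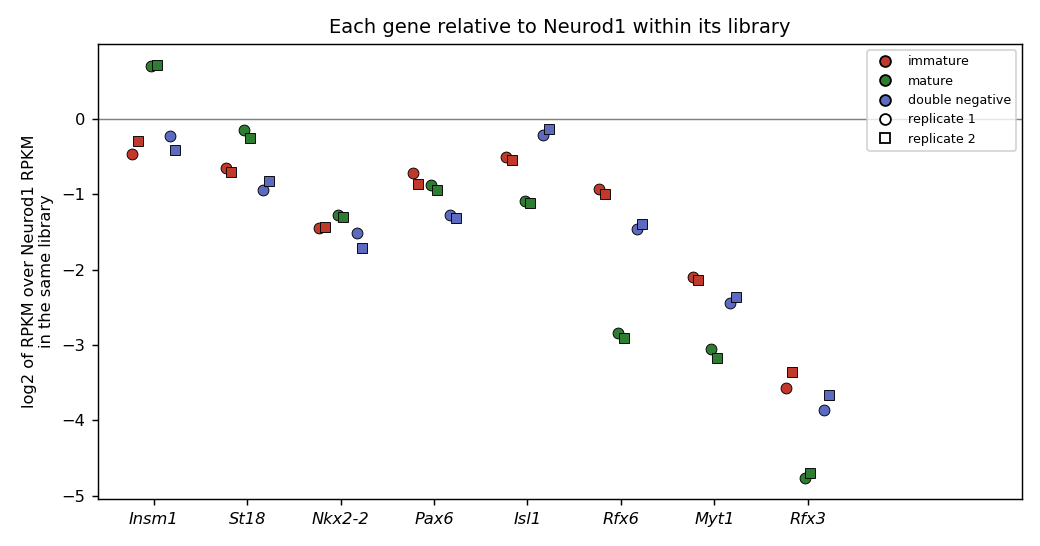
Log2 of each factor's RPKM over the Neurod1 RPKM of the same library on the vertical axis, by factor, with colour for the population and symbol for the replicate. Mature libraries stand apart upward for Insm1 (0.70 and 0.72) and downward for Rfx6 (-2.84 and -2.91), Myt1 (-3.06 and -3.17) and Rfx3 (-4.77 and -4.70).

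Next, the factors of mature beta cells were compared with those of double negative cells. Of the 9 factors, 4 were higher in mature cells (Insm1, St18, Pax6 and Nkx2-2), 4 were lower (Rfx6, Isl1, Rfx3 and Myt1) and Neurod1 did not pass. After the secretory rescaling 2 were higher and 5 lower. Among all tested genes 54.3% passed, 23.1% higher and 31.2% lower, and the median absolute difference was 0.346, against 0.695 for the 9 factors. Levels of 9 of 9 factors did not overlap between mature and double negative libraries, as held for 84.9% of all tested genes. In the first comparison 8 of 9 did not overlap, Pax6 being the exception, against a background of 82.5%.

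Between immature and double negative cells fewer of the factors passed. Only Pax6 and Rfx6 were higher and Isl1 lower in immature cells, 3 of 9, where 56.6% of all tested genes passed (45.9% higher and 10.6% lower). Libraries of 8 of 9 factors did not overlap, Insm1 being the exception, as held for 76.2% of all tested genes. Both immature libraries lay above the other 4 for Rfx6, Rfx3 and Myt1 (42.4% of all genes) and below them for Neurod1 (6.07%), and 0 factors were called below both other populations (2.73%). The median absolute difference was 0.202 for the 9 factors and 0.342 for all genes. After median-ratio rescaling and after quantile normalization 0 factors were higher and 3 lower in immature cells (Neurod1, Insm1 and Isl1). All 3 comparisons share libraries in pairs, so they are not independent of each other. In double negative cells the alpha and delta cell markers were also highest, with sums of 178100 and 171700 and of 20370 and 21910 RPKM, against 29140 and 19840 and 3384 and 3699 RPKM in immature and 660.6 and 866 and 220.5 and 338.3 RPKM in mature libraries.

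**Figure D4:**
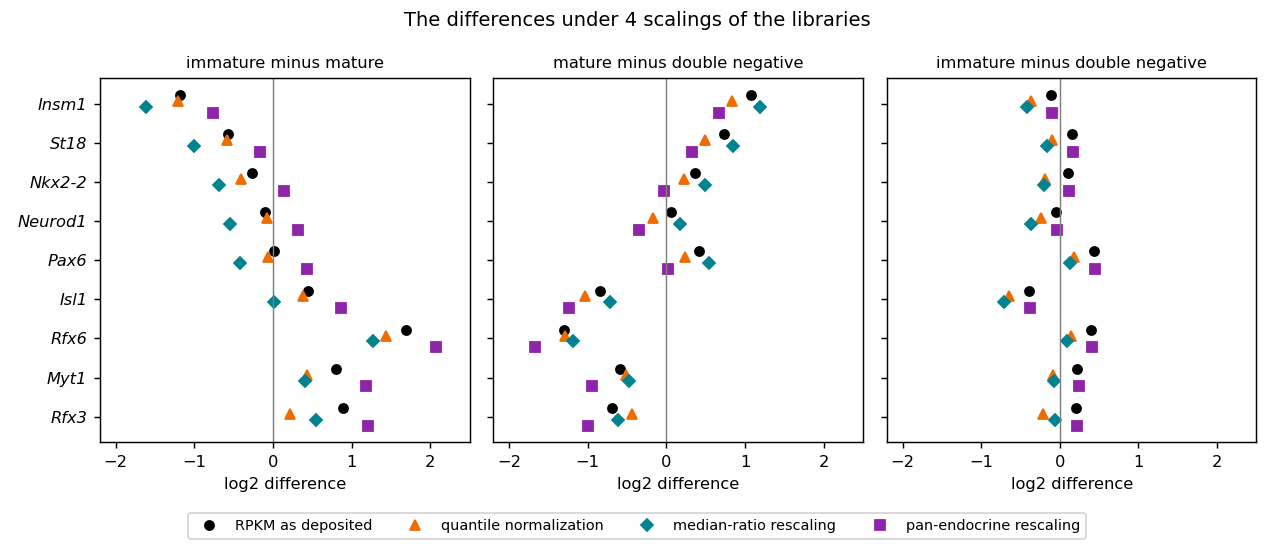
Log2 differences of the 9 factors on the horizontal axes in each comparison, as deposited and after 3 rescalings of the libraries, of which the pan-endocrine one uses the 18 secretory genes. Insm1, Rfx6, Myt1, Rfx3, Isl1 and St18 keep their sign in the first 2 panels under all 4 scalings. Isl1 falls to 0.02 in the first after median-ratio rescaling. Rfx3, St18, Nkx2-2 and Myt1 change sign with the scaling in the third.

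Paralogs of the 9 factors reached at most 7.219 RPKM in any library, though Rfx5 lay above Rfx3 in all 6. Of 19 listed, 7 were at 0 in every library, among them Neurod2, Pax4 and Nkx2-1, a value that can also reflect a failed estimate, and 7 passed the filter on low values. Of these 7, 6 were higher in immature than in mature cells and 0 lower, where 49.8% of all genes were higher, but after quantile normalization 1 was higher and 1 lower, while Myt1l, which did not pass, had 5.109 and 5.974 RPKM in immature cells, against 6.075 and 5.614 RPKM in mature cells. Nkx2-3, known from gut and spleen development, had 3.56 and 3.569 RPKM in immature, 0.03993 and 0.05295 RPKM in mature and 1.18 and 0.8748 RPKM in double negative libraries. Without its immature libraries it would not have passed the filter on low values, so its difference of 2.13 is a description. Nkx2-3 is still counted among the 6 that were higher. Neurog3, the factor that commits progenitors to the endocrine lineage, had 0.5425 and 1.694 RPKM in immature, 0.1095 and 0.121 RPKM in mature and 4.562 and 4.771 RPKM in double negative libraries. Of the other RFX genes, Rfx1 was higher in immature cells than in mature cells by 0.82 and Rfx7 by 0.78, though Rfx7 and Rfx2 turned sign after quantile normalization. For mature against double negative cells 0 of the 7 were higher and 6 lower, and for immature against double negative cells 3 were higher and 2 lower. Among all tested genes 23.1% were higher and 31.2% lower in the former comparison, and 45.9% and 10.6% in the latter. Nkx2-3 is also counted among the 3 that were higher in immature than in double negative cells. Neurog3 is counted among the 6 and the 2 that were lower. Without its double negative libraries Neurog3 would not have passed the filter on low values, so its differences from them are descriptions.

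Genes of cofactors through which these proteins act were higher in immature than in mature cells in 24 of 27 cases and lower in 0, with 3 not passing, against 49.8% of all genes higher. Their median difference was 0.628, against 0.285 for all genes. After quantile normalization 11 were higher and 2 lower, and 4 of the 24 turned sign (Ssbp2, Rcor3, Hdac1 and Tle4). Median-ratio rescaling gave 13 higher and 1 lower, with 2 that turned sign (Rcor1 and Sin3a). For mature against double negative cells 1 cofactor was higher and 19 lower, where 23.1% of all tested genes were higher and 31.2% lower. For immature against double negative cells 14 were higher and 3 lower, where 45.9% of all tested genes were higher and 10.6% lower. These counts became 7 and 6 after quantile normalization and after median-ratio rescaling. Rest, a repressor of neuronal and endocrine genes, had 3.991 and 3.252 RPKM in immature, 0.09925 and 0.06711 RPKM in mature and 0.8409 and 0.9929 RPKM in double negative libraries. Rest and Ldb2, a LIM adaptor, passed the filter through their immature libraries alone, so their differences of 2.09 and 1.95 between immature and mature cells are descriptions. Both are still counted among the 24 and the 14 that were higher and in the median of 0.628. Tcf4, an E protein, was higher in immature cells by 1.94, and Tle2, a Groucho corepressor, by 1.28. In these libraries the endothelial gene Cdh5 stood at 125.2 and 124.9 RPKM in immature, 0.4971 and 0.2619 RPKM in mature and 31.14 and 30.68 RPKM in double negative cells, and its part in these differences was not tested. Ldb1, the partner of ISL1, named after its values were seen, had 23.9 and 24.44, 12.4 and 11.73, and 16.94 and 15.61 RPKM. Kdm1a, which INSM1 recruits and which was likewise named afterwards, had 23.07 and 22.34, 12.9 and 13.35, and 19.08 and 19.73 RPKM. It was lowest in mature cells, which was common in this list. As deposited, 24 of 27 were higher in immature than in mature cells, and 19 were lower in mature than in double negative cells.

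Ciliary genes, of which several are known targets of RFX3, were divided. Of 23 tested, 6 were higher and 4 lower in immature cells, against mature cells, and 13 did not pass, with a median difference of 0.064. Among all tested genes 49.8% were higher and 15.5% lower, with a median of 0.285. Dync2h1, a motor of ciliary transport, was higher by 0.71, and Bbs2 and Arl13b by 0.45 and 0.44, while Ift57 was lower by -0.70. After quantile normalization 0 were higher and 15 lower, with Arl13b among 4 that turned sign, and after the secretory rescaling 12 were higher and 1 lower.

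Secretory genes of endocrine cells were mostly lower in immature cells than in mature cells as deposited. Of 18 tested, 2 were higher, 12 lower and 4 did not pass, with a median of -0.548, where 49.8% of all tested genes were higher and 15.5% lower. The granin gene Scg3 was lower by -1.54, the vesicle gene Syp by -1.25 and the granule membrane gene Ptprn by -0.87, and the calcium sensor gene Scgn was higher by 1.08. Cadps turned sign after median-ratio rescaling, and Vamp2 and Syt7 after the secretory rescaling. That rescaling is built on these same genes and gave 7 higher and 6 lower, with a median of -0.131. Their geometric mean was 173 and 176.6 RPKM in immature, 232.7 and 236.9 RPKM in mature and 180.5 and 172.5 RPKM in double negative libraries. Known targets of the 9 factors divided, with 5 of 19 higher, 12 lower and 2 not passing, against the same 49.8% and 15.5% of all genes. Gcg, the glucagon gene of alpha cells, was higher by 5.22, and Mafa and G6pc2, genes of mature beta cells, were lower by -2.40 and -2.26. Among the called targets Slc30a8 turned sign after median-ratio rescaling, and Kcnj11 among others after the secretory rescaling. Quantile normalization brought Ins2, at -1.81 as deposited, and Iapp, at -1.40, to about 0.

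**Figure D5:**
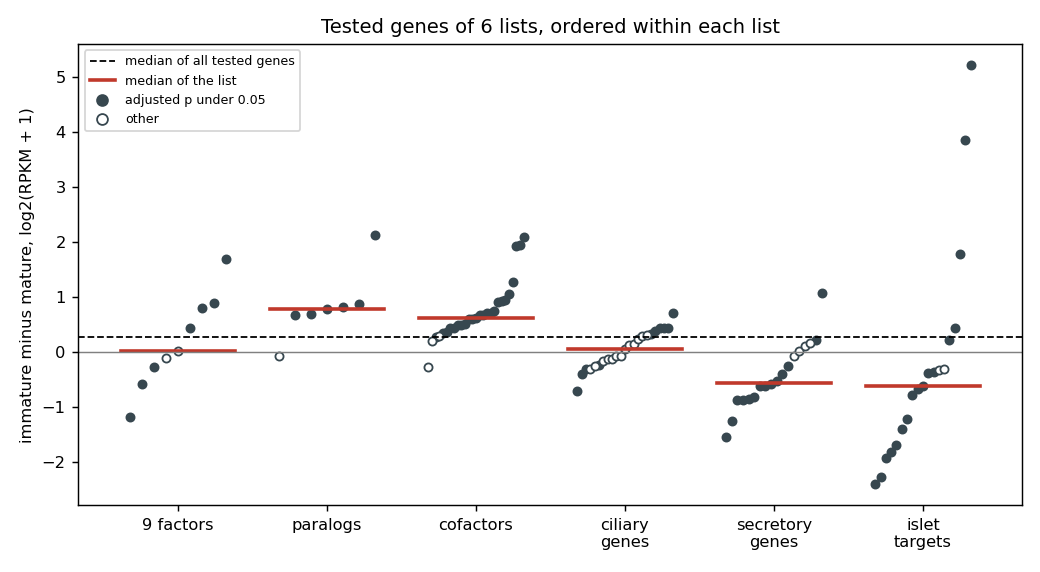
Difference in log2(RPKM + 1) between immature and mature cells on the vertical axis for each tested gene of 6 lists, filled where the adjusted p is under 0.05. The list medians run from 0.776 for paralogs and 0.628 for cofactors through 0.017 for the 9 factors and 0.064 for ciliary genes to -0.548 for secretory genes and -0.608 for islet targets, with the median of all genes at 0.285. The paralogs include Nkx2-3 and the cofactors Rest and Ldb2, which passed the filter on low values through their immature libraries alone.

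The genes closest to each factor in pattern were sought among 8701 genes by the root-mean-square distance of log2(RPKM + 1) values, each centred on its own mean over the 6 libraries. The closest to Insm1 were Gars, a glycyl-tRNA synthetase gene, at a distance of 0.072, and Gmppb, a GDP-mannose enzyme gene, at 0.09. Gars had 99.91 and 96.03 RPKM in immature, 213.03 and 208.78 RPKM in mature and 101.92 and 101.3 RPKM in double negative libraries. Only 4 genes lay within 0.1 of Insm1 and 6 within 0.1 of Rfx6, fewer than for the other factors. Nearest to Rfx6 were Tnfrsf12a, a TNF receptor family gene, at 0.072 and Mfge8, a gene for a secreted glycoprotein, at 0.082, and Tnfrsf12a had 89.79 and 84, 28.33 and 26.71, and 62.64 and 61.62 RPKM in immature, mature and double negative libraries. The flatter patterns were widely shared, with 633 genes within 0.1 of Neurod1, 448 of Nkx2-2 and 352 of Pax6. Myt1, whose pattern was less flat, had 209 such genes, St18 110, Rfx3 77 and Isl1 61. Nearest to Neurod1 were Dcaf10 and Isca2, both at 0.02, to Pax6 Smcr8 and Arfgap1 at 0.015 and 0.02, and to Nkx2-2 Akt1s1 and Uqcc1 at 0.031 and 0.032. Isl1 was nearest to Bbx and Grb10 at 0.027 and 0.046, St18 to Pde1c and Msmo1 at 0.043 and 0.045, Rfx3 to Gpatch8 and Kat6a at 0.041 and 0.045, and Myt1 to Ddx5 and Rbm15 at 0.022 and 0.025. Among the 9 factors themselves, Rfx3 and Myt1 were the closest pair at 0.09, and Insm1 and Rfx6 the farthest at 1.26. These distances describe 6 libraries of 3 populations and are not a test.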

How the data were processed

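Messenger RNA of 3 sorted islet cell populations was sequenced in 6 libraries (TruSeq RNA v2, per the labels' protocols). The authors deposited 1 table of RPKM values, 1 column per library, with 46959 rows. Library titles gave the column of each sample. Per the submitters' processing notes, the tools were STAR 2.5, featureCounts and edgeR 3.14.0, and the build GRCm38.p4. The annotation release was not given in the sources used here, nor was the handling of multi-mapping reads. RPKM is relative to a library's total, so abundant hormone genes lower all other values.

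Reads were recovered from the RPKM steps with exonic lengths of GENCODE M21 (GRCm38), within 0.02 reads. Between 78.1% and 83.8% of low values came out whole per library, and 7 of the 9 factors were whole in all libraries (not Rfx6 and Myt1). Intervals from reads cover counting error only.

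Genes with at least 1 RPKM in at least 2 of 6 libraries entered limma 3.58.1 (R 4.3.3) as log2(RPKM + 1), with group means, a trend on intensity, 3 residual degrees of freedom and Benjamini-Hochberg adjustment. The pseudocount makes changes of low genes look smaller. Whether the pools were separate is not labelled, and p-values then measure only the spread between these libraries, which may be technical. A single spread per gene is assumed, while replicates differed with an SD over genes of 0.393 (immature), 0.132 (mature) and 0.222 (double negative). The fit was tested on simulated data. The factors, lists, tests and motifs were chosen with earlier results of these data known. All 9 factors were named, with up to 4 genes of each list with the largest difference between immature and mature cells and the 2 nearest genes of each factor. Some genes of the lists are not reported here. Up to 17 alternative fits were run, 1 of them chosen after seeing the data.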

Additional observations from a re-analysis of the deposited data

How the results depend on the processing

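The number of factors that passed stayed within 1.5 times in all 17 alternative fits of each comparison: 5 to 8 for immature against mature cells (7 as reported), 6 to 9 for mature against double negative (8) and 2 to 4 for immature against double negative cells (3). Scaling mattered most for direction. The share of all called genes that were higher in immature than in mature cells was 76.2% as deposited, 45.2% after median-ratio rescaling, 38.6% after quantile normalization and 93.4% after rescaling to the 18 secretory genes, with median differences of 0.285, -0.074, -0.159 and 0.627. For mature against double negative cells these shares were 42.6%, 52.4%, 49.8% and 16.1%. Immature against double negative cells gave 81.2%, 49.6%, 39.7% and 82.1%. The cause was not tested.

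Signs turned for immature against mature cells in Pax6 (-0.057 after quantile normalization, -0.414 after median-ratio rescaling, -0.075 without immature replicate 1 and -0.023 without mature replicate 2, within a range of -0.075 to 0.108 when 1 library was left out), and under the secretory rescaling in Neurod1 (0.313) and Nkx2-2 (0.145). For mature against double negative cells they turned in Neurod1 (-0.172 after quantile normalization and -0.35 after the secretory rescaling) and Nkx2-2 (-0.028 after that rescaling). For immature against double negative cells they turned after quantile normalization and median-ratio rescaling in Rfx3 (-0.22 and -0.061), St18 (-0.096 and -0.159), Nkx2-2 (-0.19 and -0.201) and Myt1 (-0.082 and -0.072).

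Counts of all genes called moved by over 1.5 times in 5 cases. Limma's voom on recovered reads, which tests only 9001 genes with whole reads, called 5637 genes for immature against mature cells (8728 as reported) and 4828 for immature against double negative (7563). On the same genes limma called 5855 and 5096 there, and 4767 for mature against double negative cells (7256 as reported). Leaving out 1 library gave 6297 to 8867 genes for immature against mature, 4720 to 8657 for mature against double negative and 5016 to 7910 for immature against double negative cells, and for the factors 6 to 7, 7 to 8 and 3 to 4. Without mature replicate 2 the second count was 4720, and without double negative replicate 1 the third was 5016. A replicate block, with the number as a covariate, called 8407, 6803 and 7073 genes and the same 7, 8 and 3 counts of factors. The labels do not state that a number marks a shared pool, and the differences between replicates correlated across genes at -0.009, 0.14 and -0.112 between the populations.

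In total 407 of 444 recomputed differences of single factors kept both direction and side of the threshold. Fits that change only the genes tested, the trend, the replicate block or the libraries outside a comparison leave the difference itself unchanged. Direction could not turn in those fits, so the tally is not a measure of how firm a direction is. The immature libraries were the shallowest, and 3 residual degrees of freedom limit every test.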
